A study of Mus musculus with 12 samples.

Results

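The 49 genes described here encode the proteins that license replication origins, run the replication fork, supply its nucleotides and drive cells across the G1/S boundary. They were taken as the rows of the count table whose Ensembl identifiers map to those symbols, a rule that uses no measured value. The list of symbols itself was chosen with earlier results of these data known. All 49 were found and all 49 passed the filter on low counts, among 14089 genes tested and 56093 entries in the table. RNA was sequenced from B16, a mouse melanoma line derived from C57BL/6, grown in DMEM with serum. Knockdown cells (shSdc1) carried a hairpin RNA against Sdc1, which encodes the heparan sulfate proteoglycan syndecan-1, and control cells (shRFP) carried one against RFP, a fluorescent protein. Each kind of cell was either left unstimulated or given interferon gamma (IFNγ) at 10 ng/ml for 24 h. The 4 groups are thus shSdc1 with IFNγ, shRFP with IFNγ, shSdc1 and shRFP, with 3 libraries each. How many hairpin sequences or clones were used is not stated in the labels, and off-target effects of the hairpin cannot be told apart from those of the lower Sdc1. The labels name no separate cultures for the 3 libraries per group. The p-values therefore cover the spread among these libraries alone, and that spread may be technical.

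Before S phase, the origin recognition complex with Cdc6 and Cdt1 loads the ring of Mcm proteins onto DNA, which licenses an origin. Cyclin D with Cdk4 or Cdk6, and then cyclin E with Cdk2, inactivate the retinoblastoma protein, which frees E2F factors to switch on genes for replication. The loaded ring is then activated by Cdc45 and the GINS complex and polymerases copy the strands behind it. IFNγ is a cytokine known to slow the growth of many tumour cells.

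Promoters of replication genes are known for E2F sites, and the windows of 4 members that hold the searched E2F letters are shown beside that of Ccne1, which holds none and had the largest difference between its IFNγ responses among members that passed. The windows run from 250 bases before to 50 after the RefSeq start (GRCm38.p6), 5′ to 3′ on the gene's strand. Mcm5 lies at chr8:75109259-75109558 (plus strand), Mcm6 at chr1:128359656-128359955 (minus strand), Rfc3 at chr5:151651159-151651458 (minus strand), Cdk2 at chr10:128705002-128705301 (minus strand) and Ccne1 at chr7:38107441-38107740 (minus strand). Capitals mark the letters TTTGGCGC, TTTCGCGC, TTTCCCGC and TTTGCCGC, searched on both strands, and overlapping matches run together.
Mcm5: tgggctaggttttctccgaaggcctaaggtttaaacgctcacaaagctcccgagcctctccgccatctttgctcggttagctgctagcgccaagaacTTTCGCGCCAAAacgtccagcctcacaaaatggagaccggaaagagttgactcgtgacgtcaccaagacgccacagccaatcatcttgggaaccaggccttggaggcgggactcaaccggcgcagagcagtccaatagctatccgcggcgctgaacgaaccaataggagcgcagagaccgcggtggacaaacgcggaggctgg
Mcm6: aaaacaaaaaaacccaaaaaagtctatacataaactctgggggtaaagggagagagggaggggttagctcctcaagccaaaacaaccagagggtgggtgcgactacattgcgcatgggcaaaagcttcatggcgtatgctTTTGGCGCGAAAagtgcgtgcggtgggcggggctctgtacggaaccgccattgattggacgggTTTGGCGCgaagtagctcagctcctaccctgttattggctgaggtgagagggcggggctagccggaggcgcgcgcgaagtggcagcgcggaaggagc
Rfc3: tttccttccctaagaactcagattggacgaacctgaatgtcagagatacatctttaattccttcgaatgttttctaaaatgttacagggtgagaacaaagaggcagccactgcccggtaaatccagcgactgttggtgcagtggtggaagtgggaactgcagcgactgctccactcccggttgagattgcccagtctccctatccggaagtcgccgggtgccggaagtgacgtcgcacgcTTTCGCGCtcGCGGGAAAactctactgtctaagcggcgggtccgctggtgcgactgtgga
Cdk2: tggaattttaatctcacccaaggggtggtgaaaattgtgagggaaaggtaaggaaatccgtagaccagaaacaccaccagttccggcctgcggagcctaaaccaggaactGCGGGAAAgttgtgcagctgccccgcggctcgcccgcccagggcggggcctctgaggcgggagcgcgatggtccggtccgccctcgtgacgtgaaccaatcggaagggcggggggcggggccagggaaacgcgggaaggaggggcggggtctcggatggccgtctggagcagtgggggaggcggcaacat
Ccne1: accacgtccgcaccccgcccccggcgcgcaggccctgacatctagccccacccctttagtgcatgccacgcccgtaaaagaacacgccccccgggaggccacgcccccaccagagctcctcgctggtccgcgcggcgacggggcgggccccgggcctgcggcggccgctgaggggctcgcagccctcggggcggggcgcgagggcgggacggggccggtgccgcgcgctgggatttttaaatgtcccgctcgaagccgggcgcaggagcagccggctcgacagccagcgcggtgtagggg
The RefSeq table held such a window for 39 of the 49 members. The letters were found in 16 of these 39 members (41.0%), in 704 of 27018 genes in the table (2.61%) and in 1 of 25 mitosis genes (4%). Mcm6 had 3 matches, Mcm5 and Rfc3 had 2 each and Cdk2 had 1. The letters CCAAT, the NF-Y motif, stood in 26 of the 39 members (66.7%), in 41.1% of all genes in the table and in 19 of 25 mitosis genes (76%). A match describes these letters only and does not show that a factor binds there.

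The libraries held 14337771 to 21548940 counts, and the members had 14 to 16349 counts each, with over 100 in every library for 48 of the 49. Fen1 was the exception. Library shSdc1 replicate 3 stood apart from replicates 1 and 2, with a chi-square per degree of freedom of 71.2 to 72.1, against 2.49 to 8.81 for the other pairs of replicates. Without it, shSdc1 against shRFP without IFNγ gave 7 members higher and 3 lower, beside 1666 and 1660 of all 14381 genes tested. IFNγ in shSdc1 cells then gave 3 higher and 11 lower, beside 2004 and 1511 of all genes. For the difference of IFNγ responses 18 members passed below 0, beside 667 of all genes. The counts with this library stand beside each comparison. The targeted gene, Sdc1, had 27.0, 25.1 and 25.4 CPM in shSdc1 with IFNγ, 83.3, 79.6 and 103 CPM in shRFP with IFNγ, 23.4, 22.1 and 25.7 CPM in shSdc1, and 76.4, 73.9 and 75.9 CPM in shRFP. Its log2 fold change in shSdc1 against shRFP was -1.77 ± 0.08 (adjusted p = 6.5e-12) with IFNγ and log2 -1.67 ± 0.08 (adjusted p = 2.5e-11) without. Levels are given in CPM, read counts scaled to library size with TMM. A value written as log2 x ± y is a log2 fold change with its standard error, or a difference of such values where so named. It stands with the adjusted p of edgeR's quasi-likelihood test, and a gene is called higher or lower at an adjusted p under 0.05. Of the 7 melanoma markers, 6 were lower in shSdc1 with IFNγ and 7 were lower in shSdc1 without it. Of 21 markers of other cell types, 6 had 0 counts in every library, among them the macrophage receptor Adgre1 and the T-cell gene Cd3e, and 4 passed the filter. The 8 leukocyte markers summed to 15.8 to 16.6 CPM in shSdc1 with IFNγ, 5.73 to 8.38 CPM in shRFP with IFNγ, 8.50 to 8.92 CPM in shSdc1 and 2.49 to 3.38 CPM in shRFP. Of the 8, only Cd68 and Lyz2 passed the filter in these libraries, the pan-leukocyte gene Ptprc had 1 count over the 12 libraries, and the part of these markers in the results was not tested. In bulk RNA, a change in the share of cells in S phase and a change in RNA per cell cannot be told apart.

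Most of the 49 genes were lower in knockdown than in control cells where both had received IFNγ, and IFNγ raised 26 of them in control cells and 4 in knockdown cells. In shSdc1 with IFNγ against shRFP with IFNγ, 30 members were lower (61.2%) and 2 higher, where 17.4% of all tested genes were lower and 18.9% higher, 36.3% in all. The median log2 fold change of the 49 was -0.19, beside 0.02 over all tested genes, and 40 members lay below 0. In shSdc1 against shRFP without IFNγ, 10 members were higher (20.4%) and 5 lower (10.2%), near the 14.0% and 14.6% of all tested genes (28.6% in all), with a median of 0.04 beside 0.00. IFNγ in shSdc1 cells gave 4 higher (8.16%) and 13 lower (26.5%), where 17.5% and 13.0% of all genes were called (30.5% in all), with a median of -0.05. IFNγ in shRFP cells gave 26 higher (53.1%) and 1 lower, where 17.2% and 14.4% of all genes were called (31.6% in all), with a median of 0.16, and 41 members lay above 0. The test of the difference between both responses to IFNγ found 17 members with a difference below 0 (34.7%), where 5.15% of all tested genes were lower, 4.58% higher and 9.73% called in all, with a median of -0.19 beside 0.02. This edgeR test called 0 members higher, with 1 at an unadjusted p under 0.05 (Ccnd2), while DESeq2 called 1 and limma-voom 0. The comparison of both groups with IFNγ, that of IFNγ in shRFP cells and the difference all use the shRFP libraries with IFNγ. They are thus not separate results. Outside Ccnd1, Cdk2 and Gins4, the log2 fold changes of called members in the comparisons between groups lay between -0.49 and 0.43.

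**Figure D1:**
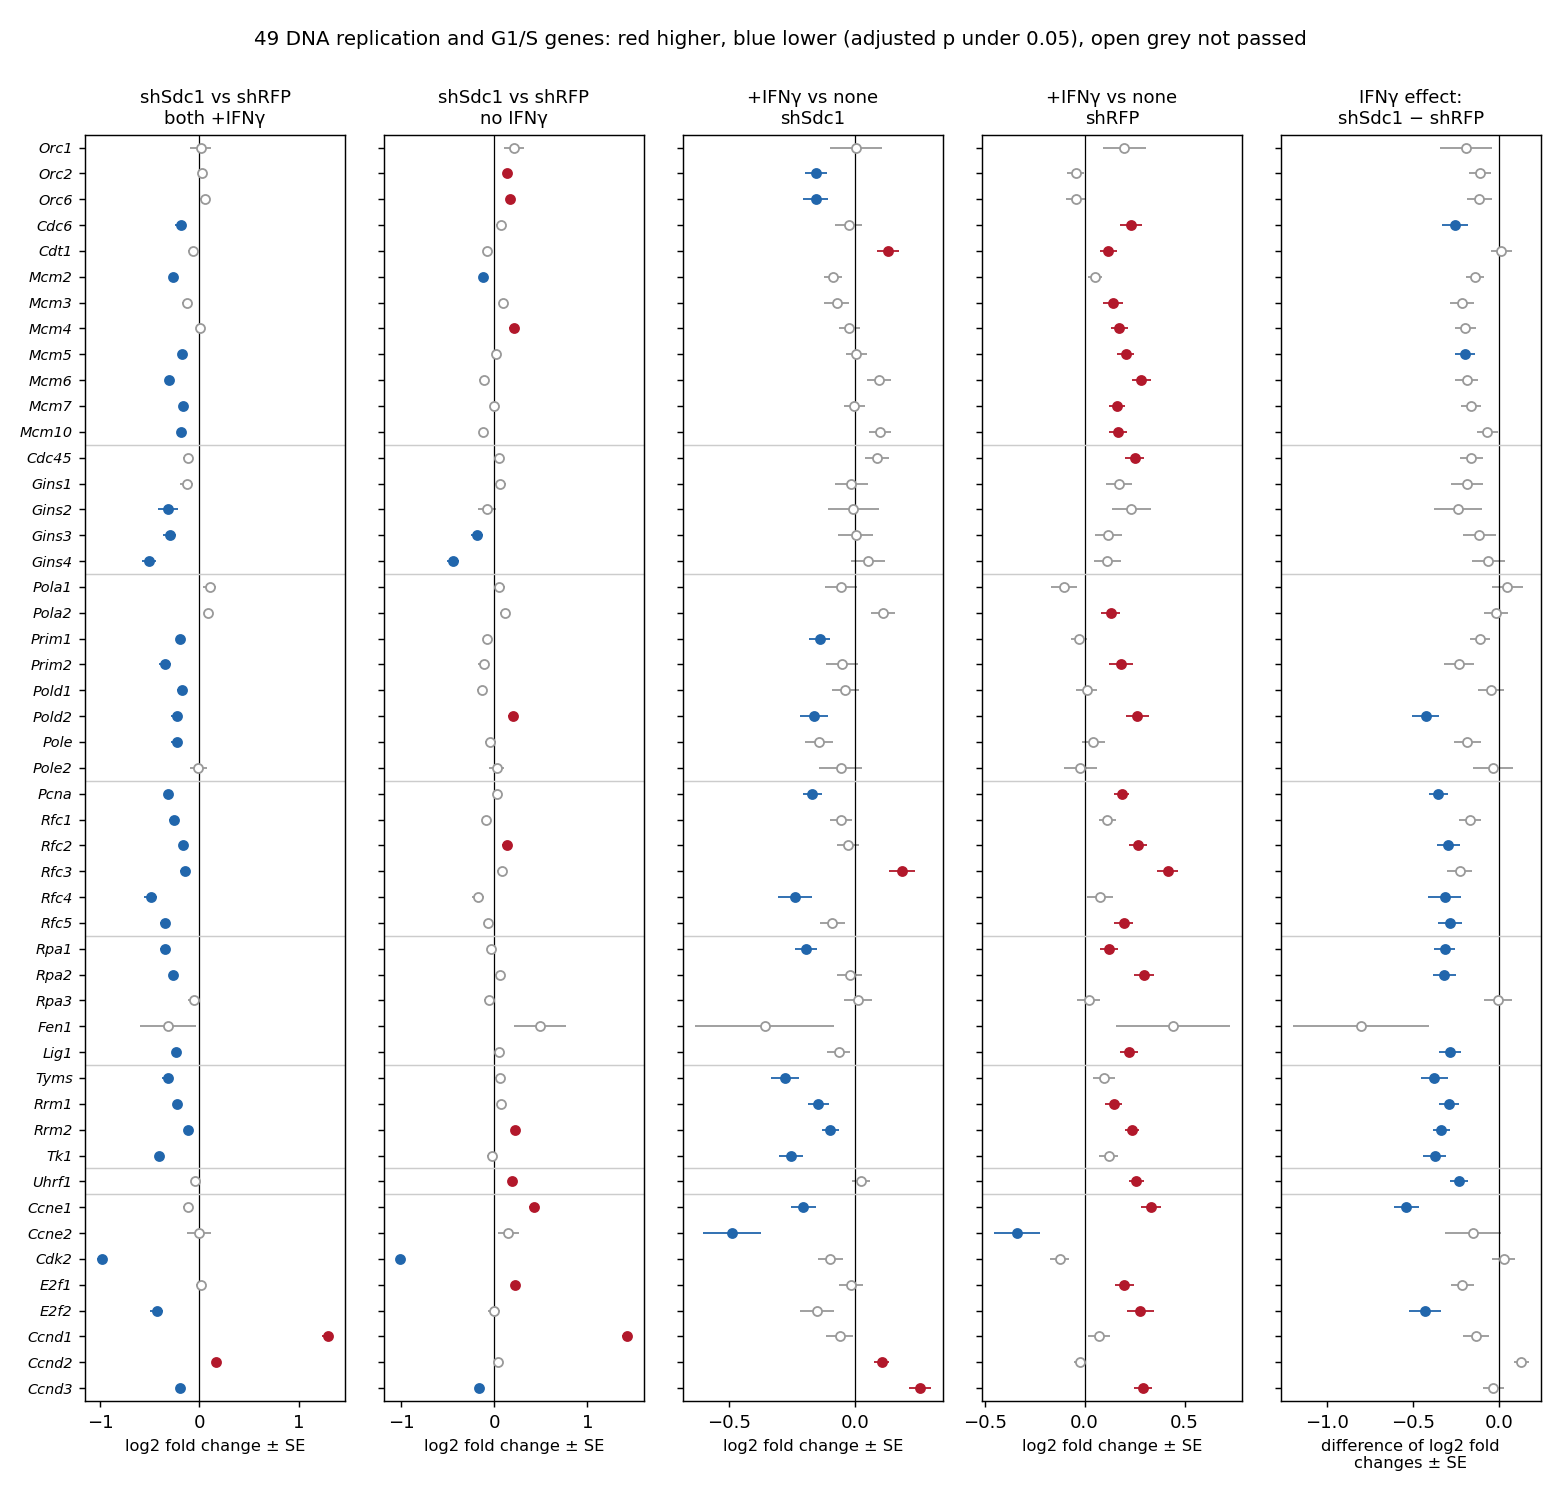
Log2 fold change ± SE of each of the 49 genes, grouped by role down the page, in the 4 comparisons between groups and, at the right, the difference of the IFNγ effects (shSdc1 minus shRFP). Filled points passed an adjusted p of 0.05; blue points fill the first panel (30 lower, 2 higher) and red points the fourth (26 higher, 1 lower).

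Summed over the 49 members, the level was 8692 to 8793 CPM in shSdc1 with IFNγ, 9619.6 to 10137 CPM in shRFP with IFNγ, 8933 to 9002 CPM in shSdc1 and 8809.7 to 9156 CPM in shRFP. The shRFP libraries with IFNγ thus stood above all 9 others. Their replicate 2 was the highest of the 12 libraries, with 10137 CPM. Without it the comparison with IFNγ still gave 28 members lower, beside 2204 of all 14419 genes tested. IFNγ in shRFP cells then gave 21 members higher, beside 2070 of all genes. With upper-quartile scaling in place of TMM, IFNγ in shRFP cells gave 18 members higher and 2 lower, and over all genes the split changed to 1759 higher and 2811 lower, against 2422 and 2024 with TMM. Under that scaling the median of the members was 0.11 and that of all tested genes -0.06. For IFNγ in shSdc1 cells the same scaling gave 2 members higher and 17 lower, and 2047 higher and 2495 lower over all genes, against 2469 and 1826 with TMM.

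The largest changes of the knockdown among the 49 were in Ccnd1 and Cdk2, and the other cyclins changed less or did not pass. Ccnd1, which encodes cyclin D1 and joins mitogen signals to the cell cycle, had 228, 242 and 231 CPM in shSdc1 with IFNγ, 98.2, 90.2 and 98.3 CPM in shRFP with IFNγ, 244, 242 and 246 CPM in shSdc1, and 90.5, 83.2 and 99.0 CPM in shRFP. All 6 knockdown libraries stood above all 6 control libraries, with or without IFNγ. Its log2 fold change was 1.29 ± 0.06 (adjusted p = 3.0e-12) with IFNγ and log2 1.43 ± 0.06 (adjusted p = 1.2e-12) without, and IFNγ gave log2 -0.06 ± 0.05 (adjusted p = 0.43) in shSdc1 and log2 0.07 ± 0.06 (adjusted p = 0.35) in shRFP cells. In the annotation 23.4% of the Ccnd1 exon bases overlap LTO1 on the opposite strand, and since the strand setting is not given, reads there cannot be told apart. LTO1 averaged 16.2 CPM in shSdc1 with IFNγ, 16.4 CPM in shRFP with IFNγ, 17.3 CPM in shSdc1 and 15.2 CPM in shRFP, with log2 fold changes of -0.02 ± 0.08 (adjusted p = 0.86) with IFNγ and log2 0.19 ± 0.08 (adjusted p = 0.071) without.

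Ccnd2, which encodes cyclin D2, had the highest level per exon length of the D cyclins. It had 823, 809 and 825 CPM in shSdc1 with IFNγ, 731, 727 and 734 CPM in shRFP with IFNγ, 762, 774 and 745 CPM in shSdc1, and 745, 749.8 and 731 CPM in shRFP. The shSdc1 libraries with IFNγ stood above all the others, and the shRFP libraries without IFNγ overlapped both shRFP with IFNγ and shSdc1. It was higher in shSdc1 than in shRFP with IFNγ, by log2 0.16 ± 0.03 (adjusted p = 0.0003), and gave log2 0.04 ± 0.03 (adjusted p = 0.43) without IFNγ. Its difference between these conditions did not pass. IFNγ raised it in shSdc1 cells by log2 0.11 ± 0.03 (adjusted p = 0.011), a call that ended without shSdc1 replicate 3 (0.08), with upper-quartile scaling (0.06) and with no filter (0.10). Ccnd3, which encodes cyclin D3, had 218, 227 and 229.5 CPM in shSdc1 with IFNγ, 247, 251 and 273 CPM in shRFP with IFNγ, 184, 188 and 191 CPM in shSdc1, and 213, 204 and 213 CPM in shRFP. It was lower in knockdown than in control libraries at either condition with no overlap, at log2 -0.19 ± 0.04 (adjusted p = 0.0019) with IFNγ and log2 -0.16 ± 0.04 (adjusted p = 0.0099) without. IFNγ raised it in both kinds of cell, by log2 0.26 ± 0.04 (adjusted p = 0.00016) in shSdc1 and log2 0.29 ± 0.04 (adjusted p = 4.6e-05) in shRFP cells. Per exon length, Ccnd1 made up 30.1 to 31.5% of the D-cyclin signal in shSdc1 with IFNγ, 15.3 to 16.5% in shRFP with IFNγ, 33.1 to 34.1% in shSdc1 and 14.7 to 17.1% in shRFP. The order by length-scaled level was Ccnd2, Ccnd1, Ccnd3 in both knockdown groups and Ccnd2, Ccnd3, Ccnd1 in both control groups.

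Cdk2, the kinase partner of cyclin E, had 269, 255 and 299 CPM in shSdc1 with IFNγ, 534, 569.8 and 524 CPM in shRFP with IFNγ, 292, 295 and 294 CPM in shSdc1, and 602, 591 and 581 CPM in shRFP. Every knockdown library was below every control library. The log2 fold change was -0.98 ± 0.05 (adjusted p = 1.7e-11) with IFNγ and log2 -1.01 ± 0.05 (adjusted p = 1.8e-11) without, and the difference between them was log2 0.03 ± 0.07 (adjusted p = 0.85), with a 95% interval of -0.11 to 0.17. In human melanocytes CDK2 is known as a target of the pigment-cell factor MITF and lies next to the melanosome gene PMEL. Pmel had 1543, 1397 and 1632 CPM in shSdc1 with IFNγ, 4365, 4497 and 4037 CPM in shRFP with IFNγ, 1798, 1849 and 1745 CPM in shSdc1, and 4383, 4351 and 4447 CPM in shRFP, which gave log2 -1.50 ± 0.05 (adjusted p = 9.2e-14) with IFNγ and log2 -1.29 ± 0.05 (adjusted p = 8.2e-13) without. Mitf gave log2 -0.63 ± 0.06 (adjusted p = 4.7e-08) with IFNγ and log2 -0.61 ± 0.06 (adjusted p = 9.3e-08) without. All 3 genes were thus lower in the knockdown, and whether the lower Pmel and Mitf have a part in the lower Cdk2 was not tested. Exons of Cdk2 and Pmel, on opposite strands, share 34 bases in the annotation, which is 0.547% of the Cdk2 exon bases.

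**Figure D2:**
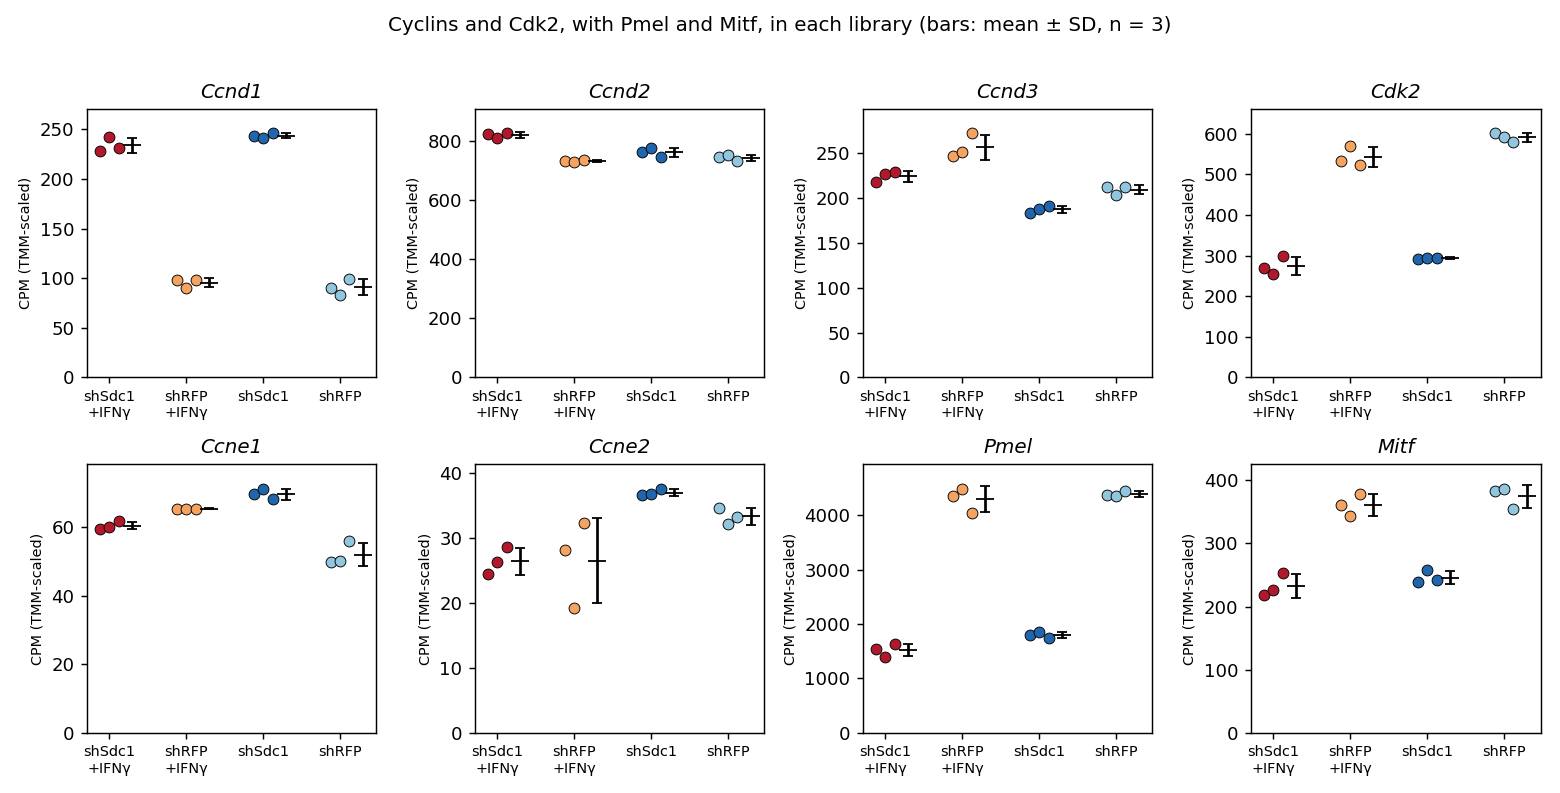
Level in CPM (TMM-scaled, linear axes from 0) of the D and E cyclins, Cdk2, Pmel and Mitf in each of the 12 libraries, by group, with bars for mean ± SD (n = 3). Ccnd1 stands at 228 to 246 CPM in the knockdown libraries and 83.2 to 99.0 CPM in the control libraries, and Cdk2 at 255 to 299 CPM in the knockdown libraries and 524 to 602 CPM in the control libraries.

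Ccne1, which encodes cyclin E1, the partner that activates Cdk2 at G1/S, had 59.4, 60.1 and 61.6 CPM in shSdc1 with IFNγ, 65.1, 65.4 and 65.3 CPM in shRFP with IFNγ, 69.6, 71.2 and 68.0 CPM in shSdc1, and 49.7, 50.2 and 55.8 CPM in shRFP. The 3 shSdc1 libraries without IFNγ were the highest and the 3 shRFP libraries without IFNγ the lowest, and the groups with IFNγ lay between them. IFNγ lowered Ccne1 in shSdc1 cells at log2 -0.20 ± 0.05 (adjusted p = 0.0039) and raised it in shRFP cells by log2 0.33 ± 0.05 (adjusted p = 5.2e-05), and this difference of log2 -0.54 ± 0.07 (adjusted p = 0.00014) was the largest among the 17 called members. In shSdc1 against shRFP it gave log2 -0.11 ± 0.05 (adjusted p = 0.089) with IFNγ and log2 0.43 ± 0.05 (adjusted p = 2.6e-06) without. Ccne2, which encodes cyclin E2, had 24.4, 26.3 and 28.5 CPM in shSdc1 with IFNγ, 28.0, 19.3 and 32.2 CPM in shRFP with IFNγ, 36.6, 36.7 and 37.6 CPM in shSdc1, and 34.6, 32.0 and 33.2 CPM in shRFP. Of the Ccne2 exon bases, 17.4% overlap Ints8 on the opposite strand, so reads there are uncertain. Ints8 averaged 37.0 CPM in shSdc1 with IFNγ, 34.9 CPM in shRFP with IFNγ, 39.8 CPM in shSdc1 and 35.9 CPM in shRFP. For Ccne2, the libraries with IFNγ lay below all those without, apart from 1 shRFP library with IFNγ at 32.2 CPM. That library lies just above the lowest shRFP library. IFNγ gave log2 -0.49 ± 0.11 (adjusted p = 0.0031) in shSdc1 and log2 -0.34 ± 0.12 (adjusted p = 0.034) in shRFP cells; the second call ended without any 1 of the shRFP replicates 1 to 3 (-0.30, -0.36 and -0.34) and without shRFP replicate 2 with IFNγ (-0.14), and when only the compared groups were fitted (-0.34).

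E2f1 and E2f2 encode activating E2F factors. E2f1 had 94.2, 88.8 and 90.1 CPM in shSdc1 with IFNγ, 87.7, 92.8 and 90.2 CPM in shRFP with IFNγ, 94.3, 93.6 and 88.0 CPM in shSdc1, and 76.8, 77.4 and 81.9 CPM in shRFP. The shRFP libraries without IFNγ lay below all others, and the other 3 groups overlapped. E2f1 was higher in shSdc1 without IFNγ, by log2 0.23 ± 0.05 (adjusted p = 0.0012), against log2 0.01 ± 0.05 (adjusted p = 0.86) with IFNγ, and IFNγ raised it in shRFP cells by log2 0.20 ± 0.05 (adjusted p = 0.0035). For E2f1 the difference of IFNγ responses did not pass. E2f2 had 32.7, 32.0 and 33.7 CPM in shSdc1 with IFNγ, 45.1, 46.2 and 41.1 CPM in shRFP with IFNγ, 38.3, 37.2 and 33.5 CPM in shSdc1, and 38.7, 34.8 and 35.4 CPM in shRFP. It was highest in the 3 shRFP libraries with IFNγ. It was lower in shSdc1 than in shRFP with IFNγ, at log2 -0.43 ± 0.07 (adjusted p = 4.9e-05), and gave log2 0.00 ± 0.07 (adjusted p = 1) without IFNγ. IFNγ raised it in shRFP cells by log2 0.28 ± 0.07 (adjusted p = 0.0031) and gave log2 -0.15 ± 0.07 (adjusted p = 0.1) in shSdc1 cells, a difference of log2 -0.43 ± 0.09 (adjusted p = 0.0079).

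The 12 genes grouped under origin licensing include Mcm10, which is not a subunit of the loaded ring. Among these 12, 6 were lower in shSdc1 than in shRFP with IFNγ, namely Cdc6, Mcm2, Mcm5, Mcm6, Mcm7 and Mcm10, with log2 fold changes of -0.17 (Mcm7) to -0.30 (Mcm6). The other 6, which include the origin recognition subunits Orc1, Orc2 and Orc6, did not pass. IFNγ in shRFP cells raised 8 of the 12, namely Cdc6, Cdt1, Mcm3, Mcm4, Mcm5, Mcm6, Mcm7 and Mcm10. Mcm6, a subunit of the helicase ring, had 418, 424 and 385 CPM in shSdc1 with IFNγ, 473, 542 and 497 CPM in shRFP with IFNγ, 377, 382 and 389 CPM in shSdc1, and 431, 399 and 412 CPM in shRFP. The shRFP libraries with IFNγ were the highest, and those of shSdc1 with IFNγ overlapped both groups without IFNγ. IFNγ gave log2 0.10 ± 0.05 (adjusted p = 0.15) in shSdc1 and log2 0.28 ± 0.05 (adjusted p = 0.00019) in shRFP cells. The difference between these responses was log2 -0.19 ± 0.07 (adjusted p = 0.088), so it did not pass. For 2 of the 12 it did, Cdc6 (log2 -0.26 ± 0.08, adjusted p = 0.041) and Mcm5 (log2 -0.20 ± 0.06, adjusted p = 0.039), and both calls ended when any of several libraries was left out, with values of -0.21 to -0.28 for Cdc6 and -0.18 to -0.20 for Mcm5 in those fits. Both also ended with upper-quartile scaling (-0.24 and -0.19) and with the replicate block (-0.26 and -0.20).

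Without IFNγ, Orc2, Orc6 and Mcm4 were higher in shSdc1 than in shRFP and Mcm2 was lower. Mcm4, another ring subunit, had 235, 248 and 229 CPM in shSdc1 with IFNγ, 230.0, 245 and 232 CPM in shRFP with IFNγ, 247, 234 and 241 CPM in shSdc1, and 214, 202 and 209.6 CPM in shRFP. The shRFP libraries without IFNγ were below all others. The change without IFNγ was log2 0.21 ± 0.04 (adjusted p = 0.0013), beside log2 0.01 ± 0.04 (adjusted p = 0.88) with IFNγ. The difference between these changes did not pass. Mcm2 was lower at both conditions, at log2 -0.26 ± 0.04 (adjusted p = 1.0e-05) with IFNγ and log2 -0.13 ± 0.04 (adjusted p = 0.012) without, and the second call ended without shSdc1 replicate 3 (-0.12) or shRFP replicate 3 (-0.10). IFNγ in shSdc1 cells lowered Orc2 (log2 -0.15) and Orc6 (log2 -0.16) and raised Cdt1 (log2 0.13). The calls of Orc2 and Orc6 without IFNγ ended without shSdc1 replicate 3 (0.13 and 0.14) or shRFP replicate 2 or 3, and that of Orc2 also without shSdc1 replicate 1 or with no filter. Reads of Orc2 are uncertain, since 29.8% of its exon bases overlap Nif3l1 on the opposite strand, and Nif3l1 gave log2 -0.03 ± 0.05 (adjusted p = 0.71) in shSdc1 against shRFP without IFNγ and log2 -0.08 ± 0.05 (adjusted p = 0.27) with IFNγ in shSdc1 cells, the comparisons in which Orc2 was called. In shSdc1 against shRFP with IFNγ, where Orc2 did not pass, Nif3l1 gave log2 -0.30 ± 0.05 (adjusted p = 0.00014).

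Of the 5 partners that complete the helicase, the GINS subunits Gins2, Gins3 and Gins4 were lower in shSdc1 with IFNγ, and Cdc45 and Gins1 did not pass. Gins4 had 42.9, 42.7 and 39.7 CPM in shSdc1 with IFNγ, 54.0, 64.4 and 59.9 CPM in shRFP with IFNγ, 40.5, 37.3 and 43.1 CPM in shSdc1, and 53.2, 54.5 and 57.1 CPM in shRFP. Every knockdown library was below every control library. It gave log2 -0.51 ± 0.07 (adjusted p = 9.7e-06) with IFNγ and log2 -0.45 ± 0.07 (adjusted p = 5.5e-05) without, and the difference was log2 -0.06 ± 0.10 (adjusted p = 0.74), with a 95% interval of -0.26 to 0.14. Gins3 was lower at both conditions, at log2 -0.30 ± 0.07 (adjusted p = 0.0019) with IFNγ and log2 -0.18 ± 0.07 (adjusted p = 0.049) without, and the second call ended without any 1 of the shSdc1 replicates 1 to 3, without shRFP replicate 1 or 3, and without shSdc1 replicate 2 or 3 with IFNγ, at -0.14 to -0.20. It also ended with DESeq2 size factors, the DESeq2 Wald test, limma-voom, no filter on low counts and the replicate block, at -0.18 to -0.19, so 12 of its 20 alternatives did not keep it. Gins2 shares 67.3% of its exon bases with Gse1 on the opposite strand, so its value of log2 -0.32 ± 0.10 (adjusted p = 0.017) is uncertain, and Gse1 gave log2 0.43 ± 0.09 (adjusted p = 0.0012). IFNγ in shRFP cells raised Cdc45 by log2 0.25 ± 0.05 (adjusted p = 0.00053).

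Of the 8 subunits of polymerases and primase, 5 were lower in shSdc1 with IFNγ: Prim1 and Prim2 of the primase that makes RNA primers, Pold1 and Pold2 of the lagging-strand polymerase delta, and Pole of the leading-strand polymerase epsilon. Pola1, Pola2 and Pole2 did not pass. Pold2 had 80.3, 73.6 and 77.1 CPM in shSdc1 with IFNγ, 91.0, 93.3 and 86.1 CPM in shRFP with IFNγ, 87.4, 85.1 and 85.9 CPM in shSdc1, and 70.0, 73.5 and 82.1 CPM in shRFP. The knockdown libraries with IFNγ lay below both the control libraries with IFNγ and the knockdown libraries without it. It was lower in shSdc1 with IFNγ, at log2 -0.23 ± 0.06 (adjusted p = 0.0038), and higher in shSdc1 without it, by log2 0.20 ± 0.06 (adjusted p = 0.012), the second call ending without shRFP replicate 1 (0.15) or replicate 2 (0.18). IFNγ lowered it in shSdc1 cells, at log2 -0.16 ± 0.06 (adjusted p = 0.036), and raised it in shRFP cells, by log2 0.26 ± 0.06 (adjusted p = 0.0014), a difference of log2 -0.43 ± 0.08 (adjusted p = 0.0027). The call in shSdc1 cells ended without any 1 of the shSdc1 replicates 1 to 3 (-0.15, -0.17 and -0.17) or without replicate 2 or 3 with IFNγ (-0.13 and -0.16), and with the replicate block (-0.16).

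All 6 genes of the sliding clamp and its loader were lower in shSdc1 with IFNγ, with log2 fold changes of -0.15 (Rfc3) to -0.49 (Rfc4). The call of Rfc3 ended without shSdc1 replicate 1 or 3 with IFNγ (-0.16 and -0.12) or shRFP replicate 2 with IFNγ (-0.11), and when only the compared groups were fitted (-0.15). Pcna, the clamp that holds polymerases on DNA, had 511, 498 and 498 CPM in shSdc1 with IFNγ, 601, 658 and 621 CPM in shRFP with IFNγ, 562, 582 and 549 CPM in shSdc1, and 549, 534 and 571 CPM in shRFP. The shSdc1 libraries with IFNγ were the lowest and the shRFP libraries with IFNγ the highest, with no overlap with any other group. The change with IFNγ was log2 -0.32 ± 0.04 (adjusted p = 3.7e-06), beside log2 0.03 ± 0.04 (adjusted p = 0.58) without. IFNγ lowered it in shSdc1 cells at log2 -0.17 ± 0.04 (adjusted p = 0.003) and raised it in shRFP cells by log2 0.19 ± 0.04 (adjusted p = 0.0014), a difference of log2 -0.35 ± 0.06 (adjusted p = 0.0007). Rfc1 to Rfc5 encode the loader. Rfc4 had 34.9, 34.0 and 35.3 CPM in shSdc1 with IFNγ, 48.5, 48.9 and 49.1 CPM in shRFP with IFNγ, 39.0, 45.3 and 38.7 CPM in shSdc1, and 50.1, 43.3 and 45.1 CPM in shRFP. The knockdown libraries with IFNγ lay below all others. Its change with IFNγ was log2 -0.49 ± 0.07 (adjusted p = 1.4e-05), and IFNγ lowered it in shSdc1 cells at log2 -0.24 ± 0.07 (adjusted p = 0.012), a call that ended without shSdc1 replicate 2 (-0.16). In the annotation 12.7% of the Rfc4 exon bases overlap Eif4a2 on the opposite strand, so reads there are uncertain. Eif4a2 averaged 288 CPM in shSdc1 with IFNγ, 245 CPM in shRFP with IFNγ, 288 CPM in shSdc1 and 272 CPM in shRFP.

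Rfc3 had 73.8, 76.1 and 70.5 CPM in shSdc1 with IFNγ, 78.2, 86.9 and 79.0 CPM in shRFP with IFNγ, 64.0, 64.7 and 64.9 CPM in shSdc1, and 59.1, 60.2 and 63.8 CPM in shRFP. Both groups with IFNγ stood above both groups without. IFNγ raised it by log2 0.19 ± 0.05 (adjusted p = 0.01) in shSdc1 and log2 0.42 ± 0.05 (adjusted p = 5.2e-06) in shRFP cells, and the first call ended without shSdc1 replicate 2 with IFNγ (0.16). The difference between these responses did not pass. Rfc5 had 75.7, 77.8 and 74.0 CPM in shSdc1 with IFNγ, 92.7, 104 and 93.7 CPM in shRFP with IFNγ, 78.9, 82.0 and 81.1 CPM in shSdc1, and 86.7, 82.9 and 83.8 CPM in shRFP. The shRFP libraries with IFNγ were the highest, and its change in shSdc1 with IFNγ was log2 -0.35 ± 0.05 (adjusted p = 1.7e-05), beside log2 -0.07 ± 0.05 (adjusted p = 0.34) without. In the annotation 10.7% of its exon bases overlap Wsb2 on the opposite strand, and Wsb2 gave log2 -1.27 ± 0.04 (adjusted p = 1.7e-13) with IFNγ and log2 -1.26 ± 0.04 (adjusted p = 2.8e-13) without. Rfc2 had 133, 137 and 133 CPM in shSdc1 with IFNγ, 146, 159 and 146 CPM in shRFP with IFNγ, 132, 141 and 137 CPM in shSdc1, and 121, 127 and 127 CPM in shRFP. The shRFP libraries without IFNγ were the lowest and those with IFNγ the highest. IFNγ raised it in shRFP cells by log2 0.27 ± 0.05 (adjusted p = 0.00019) and gave log2 -0.03 ± 0.05 (adjusted p = 0.71) in shSdc1 cells. Of the Rfc2 exon bases, 15.1% overlap Lat2 on the opposite strand. Lat2 averaged 1.27 CPM in shSdc1 with IFNγ, 0.93 CPM in shRFP with IFNγ, 1.27 CPM in shSdc1 and 1.13 CPM in shRFP.

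Of the 5 genes for single-strand binding and the joining of Okazaki fragments, 3 were lower in shSdc1 with IFNγ: Rpa1 and Rpa2, subunits of the protein that coats single-stranded DNA, and Lig1, the ligase that seals the fragments. The other subunit, Rpa3, gave log2 -0.06 ± 0.06 (adjusted p = 0.45). Rpa1 had 236, 220.0 and 219 CPM in shSdc1 with IFNγ, 285, 299.9 and 275 CPM in shRFP with IFNγ, 259, 258 and 254 CPM in shSdc1, and 267, 257 and 267 CPM in shRFP. The shSdc1 libraries with IFNγ were below all others, and its change was log2 -0.35 ± 0.04 (adjusted p = 3.5e-06) with IFNγ and log2 -0.03 ± 0.04 (adjusted p = 0.6) without. IFNγ lowered it in shSdc1 cells at log2 -0.19 ± 0.04 (adjusted p = 0.002) and raised it in shRFP cells by log2 0.12 ± 0.04 (adjusted p = 0.036); the second call ended without any 1 of the shRFP replicates 1 to 3 (0.13, 0.11 and 0.13) and without replicate 1 or 2 with IFNγ (0.13 and 0.09). It also ended with upper-quartile scaling (0.07), with the replicate block (0.12) and when only the compared groups were fitted (0.12). Rpa2 had 79.3, 79.0 and 86.5 CPM in shSdc1 with IFNγ, 97.8, 95.7 and 99.7 CPM in shRFP with IFNγ, 84.4, 81.6 and 82.0 CPM in shSdc1, and 82.1, 75.5 and 80.9 CPM in shRFP. The shRFP libraries with IFNγ were above all others. IFNγ raised it in shRFP cells by log2 0.30 ± 0.05 (adjusted p = 0.00012) and gave log2 -0.02 ± 0.05 (adjusted p = 0.8) in shSdc1 cells, a difference of log2 -0.32 ± 0.07 (adjusted p = 0.0077). Fen1, the flap nuclease, averaged 1.64 CPM in shSdc1 with IFNγ, 2.02 CPM in shRFP with IFNγ, 2.09 CPM in shSdc1 and 1.47 CPM in shRFP. Since 78.8% of its exon bases overlap Gm10143 on the opposite strand, this low level is uncertain.

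All 4 genes of nucleotide supply were lower in shSdc1 with IFNγ, and all 4 were lowered by IFNγ in shSdc1 cells. Tyms, which makes thymidylate, had 80.3, 72.1 and 82.0 CPM in shSdc1 with IFNγ, 93.3, 104 and 94.7 CPM in shRFP with IFNγ, 97.6, 90.5 and 95.9 CPM in shSdc1, and 91.7, 88.8 and 91.9 CPM in shRFP. The shSdc1 libraries with IFNγ were the lowest. Its change was log2 -0.32 ± 0.06 (adjusted p = 0.00019) with IFNγ and log2 0.06 ± 0.05 (adjusted p = 0.46) without, and IFNγ gave log2 -0.28 ± 0.06 (adjusted p = 0.00076) in shSdc1 and log2 0.10 ± 0.05 (adjusted p = 0.18) in shRFP cells. Tk1, the thymidine kinase of the salvage path, had 156, 156 and 169 CPM in shSdc1 with IFNγ, 211, 221 and 204 CPM in shRFP with IFNγ, 191, 189.6 and 193 CPM in shSdc1, and 191, 189 and 206 CPM in shRFP. The same group was the lowest, and the groups without IFNγ overlapped. It gave log2 -0.40 ± 0.05 (adjusted p = 1.9e-06) with IFNγ and log2 -0.03 ± 0.05 (adjusted p = 0.69) without, and the responses to IFNγ differed at log2 -0.38 ± 0.07 (adjusted p = 0.0019).

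Rrm2, the small subunit of ribonucleotide reductase, had 426, 414 and 429.8 CPM in shSdc1 with IFNγ, 451, 461 and 461 CPM in shRFP with IFNγ, 453, 458 and 448 CPM in shSdc1, and 399, 378 and 386 CPM in shRFP. The shRFP libraries without IFNγ were the lowest and the knockdown libraries without IFNγ stood above those with it. It was lower in shSdc1 with IFNγ, at log2 -0.11 ± 0.03 (adjusted p = 0.015), and higher in shSdc1 without it, by log2 0.22 ± 0.03 (adjusted p = 5.3e-05). IFNγ lowered it in shSdc1 cells, at log2 -0.10 ± 0.03 (adjusted p = 0.035), and raised it in shRFP cells, by log2 0.24 ± 0.03 (adjusted p = 2.8e-05), a difference of log2 -0.34 ± 0.05 (adjusted p = 0.00034). Without shSdc1 replicate 2 with IFNγ both the call with IFNγ (-0.10) and the lowering in shSdc1 cells (-0.08) ended; the lowering also ended without 4 other libraries, at -0.09 to -0.11, with no filter (-0.11) and with the replicate block (-0.10). Rrm1, the large subunit, differed in its responses at log2 -0.29 ± 0.06 (adjusted p = 0.005). Uhrf1, which reads newly replicated DNA for the maintenance of its methylation, gave log2 -0.05 ± 0.04 (adjusted p = 0.37) in shSdc1 with IFNγ and was higher in shSdc1 without it, by log2 0.19 ± 0.04 (adjusted p = 0.00077). IFNγ raised it in shRFP cells by log2 0.26 ± 0.04 (adjusted p = 2.9e-05) and gave log2 0.03 ± 0.04 (adjusted p = 0.65) in shSdc1 cells.

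**Figure D3:**
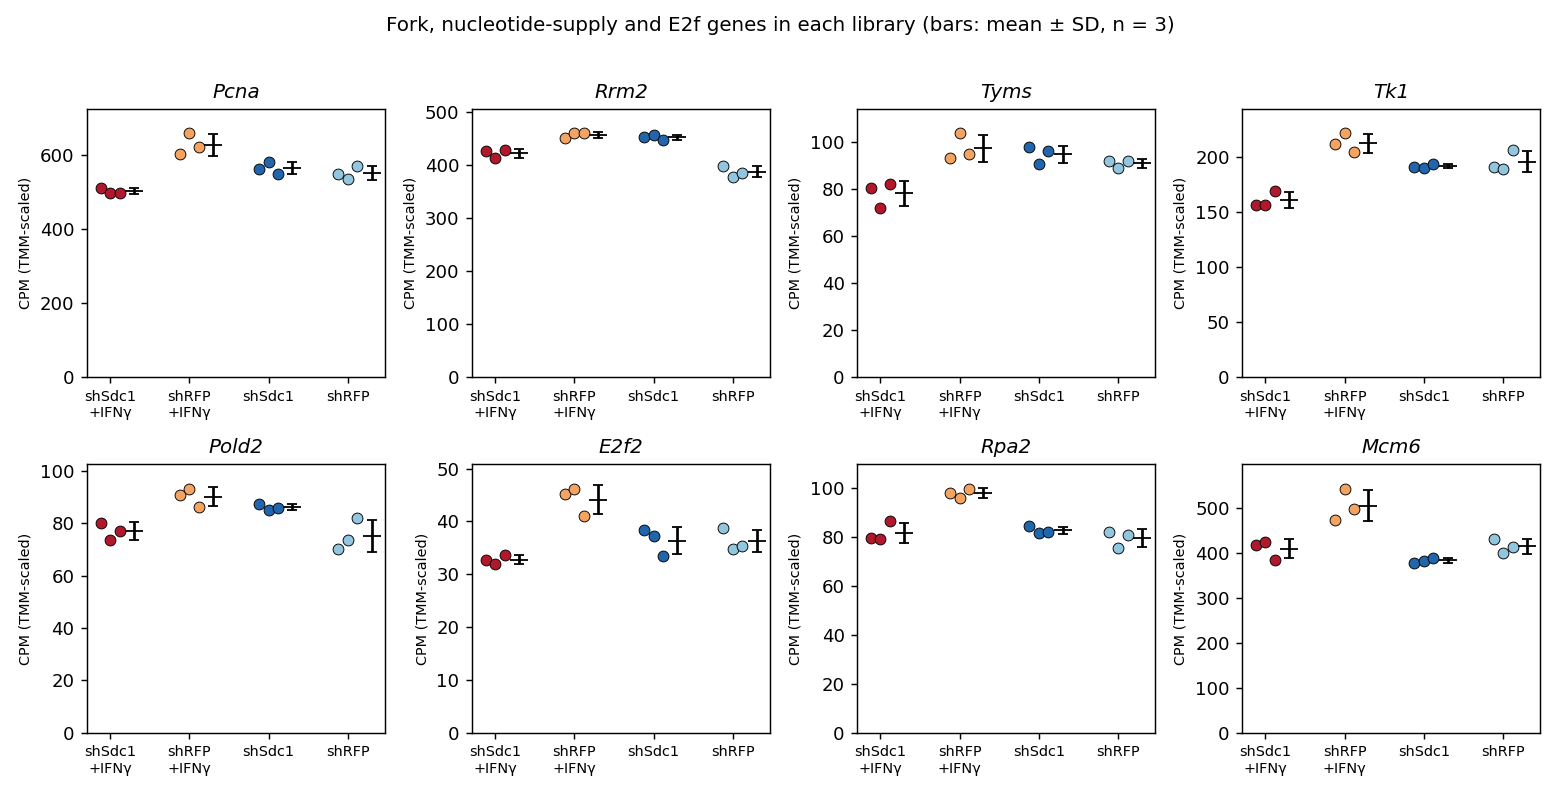
Level in CPM (TMM-scaled, linear axes from 0) of 8 genes of the fork, nucleotide supply and E2f in each of the 12 libraries, by group, with bars for mean ± SD (n = 3). Pcna lies at 498 to 511 CPM in shSdc1 with IFNγ, at 601 to 658 CPM in shRFP with IFNγ, at 549 to 582 CPM in shSdc1 and at 534 to 571 CPM in shRFP.

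The responses to IFNγ were set side by side over libraries that the 2 kinds of cell do not share. IFNγ raised Cdt1, Rfc3 and Ccnd3 in both shSdc1 and shRFP cells and lowered Ccne2 in both. It lowered Pold2, Pcna, Rpa1, Rrm1, Rrm2 and Ccne1 in shSdc1 cells and raised the same 6 genes in shRFP cells, and for all 6 the difference passed its test. Of these 6, only Pcna and Ccne1 kept both calls in every alternative fit. The lowering of Pold2, Rrm1 and Rrm2 and the rise of Rpa1 and Rrm1 ended in some. So did the calls of Cdt1 in both kinds of cell, of Rfc3 in shSdc1 cells and of Ccne2 in shRFP cells. A further 17 members were raised in shRFP cells and did not pass in shSdc1 cells. For 8 of these 17, namely Cdc6, Mcm5, Rfc2, Rfc5, Rpa2, Lig1, Uhrf1 and E2f2, the difference itself passed. Tyms, Tk1 and Rfc4, which IFNγ lowered in shSdc1 cells, are the other 3 of the 17 that differed. By role, the difference passed for 4 of 4 genes of nucleotide supply, 4 of 6 of the clamp and loader, 3 of 5 of single-strand binding and Okazaki maturation, 2 of 12 of the licensing group, 2 of 8 of the cyclins, Cdk2 and E2f, 1 of 8 of the polymerases and primase, and Uhrf1. Over all tested genes, 5.15% differed below 0. For the 5 helicase partners the differences ran from -0.06 (Gins4) to -0.24 (Gins2), and these did not pass.

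**Figure D4:**
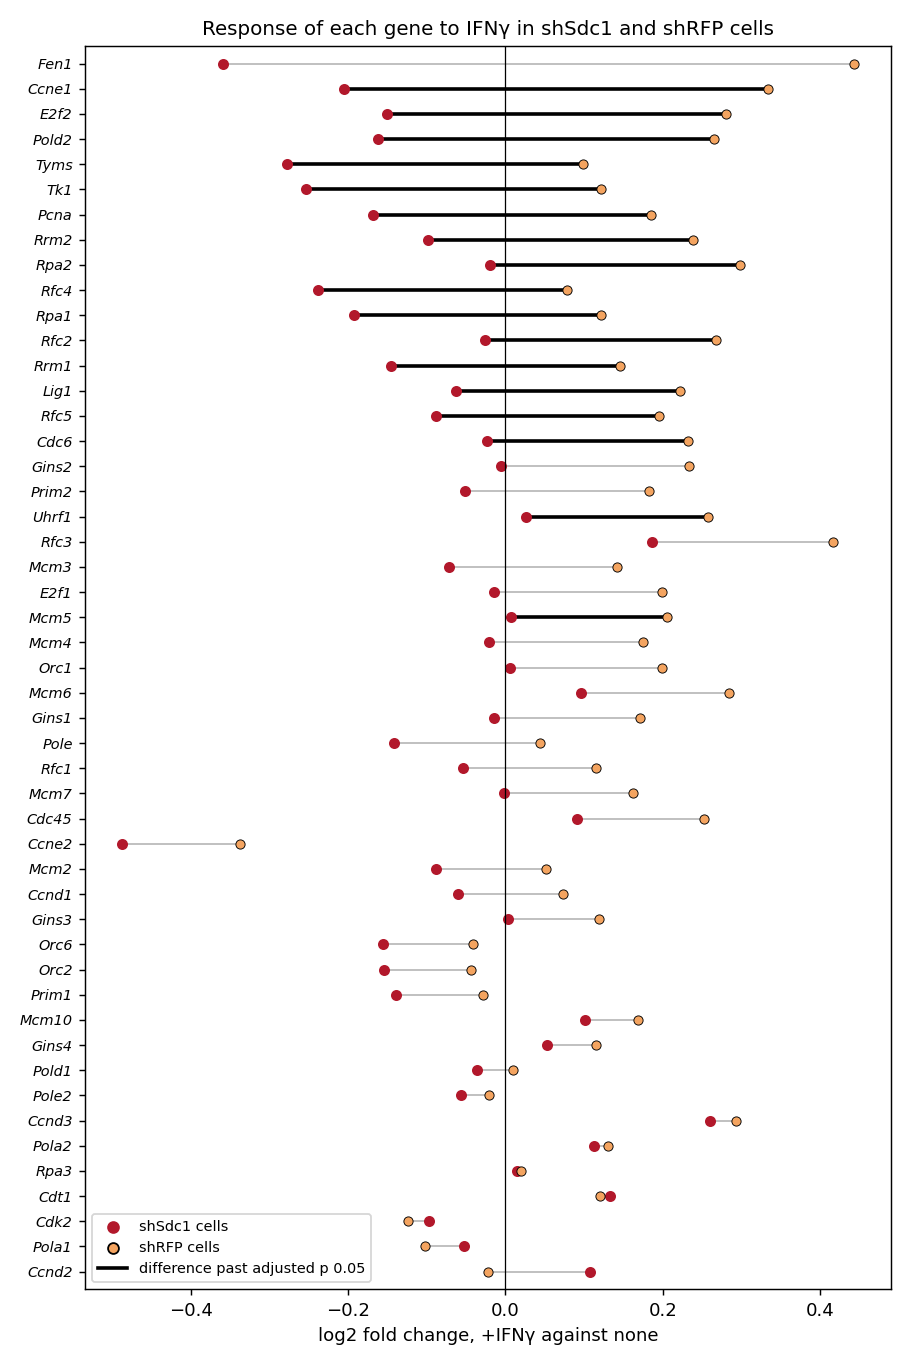
Log2 fold change with IFNγ against none in shSdc1 cells (dark red) and shRFP cells (orange) for each gene, ordered by the difference, with a black bar where the difference passed an adjusted p of 0.05. In 45 of the 49 genes the shSdc1 point lies left of the shRFP point, and 17 bars are black.

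The response to the knockdown was likewise compared with and without IFNγ. Ccnd1 was higher and Mcm2, Gins3, Gins4, Cdk2 and Ccnd3 lower in shSdc1 at both conditions. Pold2, Rfc2 and Rrm2 were lower in shSdc1 with IFNγ and higher in shSdc1 without it, but none of them kept both calls in every alternative. The call of Rfc2 without IFNγ ended without any 1 of 8 libraries and with no filter, at 0.11 to 0.14. That of Pold2 without IFNγ ended without shRFP replicate 1 or 2. That of Rrm2 with IFNγ ended without shSdc1 replicate 2 with IFNγ. The calls of Mcm2 and Gins3 without IFNγ also ended in some alternatives. A further 22 members were lower with IFNγ and did not pass without it, and 11 passed at neither condition. The difference between the conditions is the same test as the difference between the IFNγ responses above, not a second one. Of these 22, this difference passed for Cdc6, Mcm5, Pcna, Rfc4, Rfc5, Rpa1, Rpa2, Lig1, Tyms, Rrm1, Tk1 and E2f2. It did not pass for Mcm6, Mcm7, Mcm10, Gins2, Prim1, Prim2, Pold1, Pole, Rfc1 and Rfc3. Group ranges did not overlap for 33 members below and 2 above in shSdc1 with IFNγ, where 21.8% and 23.1% of all tested genes were so placed (44.9% in all), and for 12 below and 14 above without IFNγ, where 21.9% and 21.4% were (43.3% in all). With IFNγ against none, they did not overlap for 17 below and 6 above in shSdc1 cells (21.2% and 24.7% of all genes, 45.9% in all) and for 1 below and 27 above in shRFP cells (19.7% and 21.7%, 41.4% in all).

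Per exon length, Pcna had the highest mean level of the 49 in each group and Fen1 the lowest. The 6 ring subunits Mcm2 to Mcm7 lay within 1.64-fold of each other in shSdc1 with IFNγ, 1.80-fold in shRFP with IFNγ, 1.70-fold in shSdc1 and 1.84-fold in shRFP, with Mcm3 the highest and Mcm4 the lowest throughout. The 4 GINS subunits spread over 8.11-fold in shSdc1 with IFNγ, 9.24-fold in shRFP with IFNγ, 7.78-fold in shSdc1 and 9.99-fold in shRFP, with Gins4 the highest and Gins2 the lowest. Gins2 is the member whose exons overlap Gse1 and whose reads are uncertain. Without it, a choice made after seeing the data, the other 3 spread over 2.93-fold in shSdc1 with IFNγ, 3.39-fold in shRFP with IFNγ, 2.84-fold in shSdc1 and 3.41-fold in shRFP. These spreads rest on exon lengths of the GENCODE M21 annotation, which may differ from the one used for counting.

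**Figure D5:**
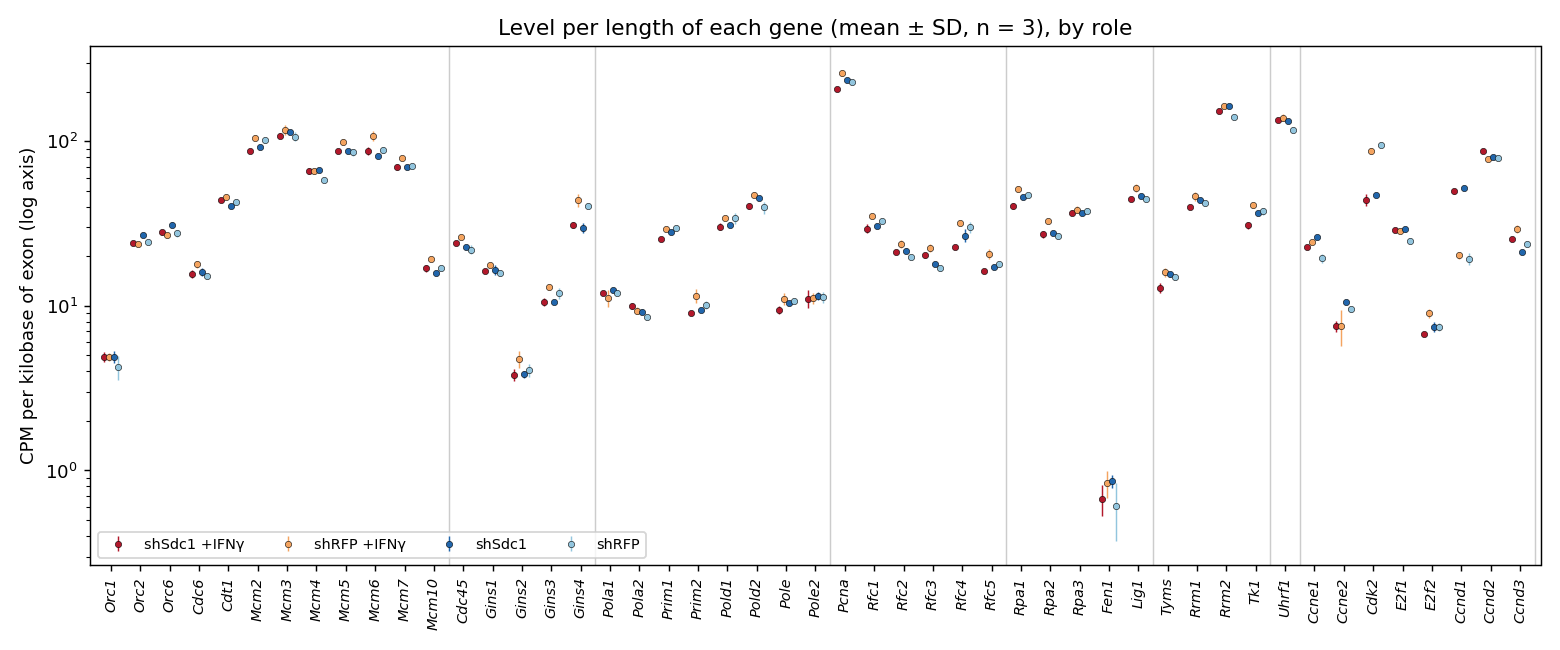
Mean level per exon length (CPM per kilobase of exon, log axis, ± SD, n = 3) of each of the 49 genes by role, in shSdc1 with IFNγ, shRFP with IFNγ, shSdc1 and shRFP. Pcna lies at the top in each group, the Mcm2 to Mcm7 points lie close together, and Fen1 lies at the bottom.

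Genes around the 49 were followed in 3 wider lists. Over all tested genes, 18.9% were higher and 17.4% lower in shSdc1 with IFNγ, 14.0% and 14.6% in shSdc1 without it, 17.5% and 13.0% with IFNγ in shSdc1 cells and 17.2% and 14.4% with IFNγ in shRFP cells, and 5.15% differed below 0 between the IFNγ responses. Of 40 other replication genes, 2 were higher and 9 lower in shSdc1 with IFNγ, 8 higher and 2 lower in shSdc1 without it, 2 higher and 12 lower with IFNγ in shSdc1 cells, and 8 higher and 7 lower with IFNγ in shRFP cells. The last shares, 20% and 17.5%, lie near those of all genes. The difference of the IFNγ responses was below 0 and passed for 9 of the 40, led by Dna2, a nuclease and helicase (log2 -0.41 ± 0.08, adjusted p = 0.0047), Asf1b, a histone chaperone (log2 -0.36 ± 0.07, adjusted p = 0.0029), and the chromatin assembly subunits Chaf1a (log2 -0.34 ± 0.06, adjusted p = 0.0023) and Chaf1b (log2 -0.32 ± 0.06, adjusted p = 0.004). Of 28 further G1/S regulators in the table, 24 were tested, since Cdkn1c, Cdkn2a, Cdkn2b and Mycn did not pass the filter. Of the 24, 6 were higher and 9 lower in shSdc1 with IFNγ, 7 higher and 4 lower in shSdc1 without it, 5 higher and 10 lower with IFNγ in shSdc1 cells, and 5 higher and 4 lower with IFNγ in shRFP cells, and the difference was below 0 and passed for 9. Cdk6, a kinase partner of the D cyclins, was higher in shSdc1 by log2 1.08 ± 0.06 (adjusted p = 1.6e-10) with IFNγ and log2 1.09 ± 0.06 (adjusted p = 2.3e-10) without. The retinoblastoma relative Rbl2 was lower at log2 -0.38 ± 0.05 (adjusted p = 5.0e-06) with IFNγ and log2 -0.53 ± 0.05 (adjusted p = 1.1e-07) without. Cdkn1a, which encodes the Cdk inhibitor p21, was raised by IFNγ by log2 0.55 ± 0.08 (adjusted p = 1.5e-05) in shSdc1 and log2 0.33 ± 0.08 (adjusted p = 0.0028) in shRFP cells.

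Of 30 mitosis genes, 6 were higher and 13 lower in shSdc1 with IFNγ, 5 higher and 3 lower in shSdc1 without it, 5 higher and 7 lower with IFNγ in shSdc1 cells, and 11 higher and 7 lower with IFNγ in shRFP cells. The shares without IFNγ, 16.7% and 10%, lie near those of all genes. The difference was below 0 and passed for 8 of the 30, among them the kinases Plk1 (log2 -0.32 ± 0.09, adjusted p = 0.037) and Aurkb (log2 -0.25 ± 0.06, adjusted p = 0.015). Mki67, the proliferation antigen, was lowered by IFNγ at log2 -0.59 ± 0.10 (adjusted p = 0.00013) in shSdc1 and log2 -0.50 ± 0.10 (adjusted p = 0.00072) in shRFP cells. The median log2 fold change in shSdc1 with IFNγ was -0.19 for the 49 members, -0.06 for the other replication genes, -0.08 for the G1/S regulators and -0.05 for the mitosis genes, beside 0.02 over all tested genes.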

How the data were processed

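RNA of 12 B16 libraries was sequenced as paired ends on an Illumina instrument, per the labels' protocols. The deposited values are raw read counts per gene from the authors, and the submitters' processing notes name HISAT2 2.0.5, Trimmomatic and HTSeq, with GRCm39 as the build. The gene annotation and whether reads were counted by strand are not stated there. Symbols, exon lengths and overlaps came from GENCODE M21 (GRCm38), which matched 52083 identifiers, and promoter windows from RefSeq (GRCm38.p6).

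The 14089 genes kept by filterByExpr (minimum count 10, minimum total 15) of 27472 with a count were scaled by TMM. They were tested with edgeR 4.0.16 in R 4.3.3 (glmQLFit and glmQLFTest), with 1 coefficient per group over all 12 libraries, 8 residual degrees of freedom, two-sided, and with Benjamini-Hochberg adjustment over all tested genes at 0.05. The steps were run on simulated counts with known changes set in the shSdc1 group. Recovery was required only for the larger of these changes, in shSdc1 against shRFP without IFNγ. The simulation thus does not show how well changes as small as most of those here, or differences of IFNγ responses, are found. Depth was 14337771 to 21548940 counts per library. Counting error was largest for Fen1, and it also matters for small changes of members with low counts, such as Orc1 (182 to 344) and Gins2 (216 to 351).

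The members and the wider lists were chosen with earlier results of these data known. Every member may be named. Values in every sample were given for the D cyclins and for up to 8 members per comparison with the largest log2 fold change among members past the threshold whose mean reached 1 CPM in a compared group, and up to 4 genes of each wider list and comparison could be named by the same rule. The overlapping genes LTO1, Nif3l1, Gse1, Wsb2, Eif4a2, Ints8 and Lat2 were named beside the member they overlap. Marker lists of melanoma and of other cell types were read as checks. Alternatives were limma-voom (3.58.1), the Wald test of DESeq2 1.42.0, its size factors, upper-quartile scaling, no filter, a 1 CPM filter (met in 3 libraries), separate fits of each pair of groups, a replicate block, and leave-one-out fits. Copies were sought with BLAST 2.17.0, and figures were drawn with matplotlib 3.10.9 in Python 3.11.15.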

Additional observations from a re-analysis of the deposited data

Results flagged for a closer look

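The response to IFNγ differed between shSdc1 and shRFP cells for 17 of the 49 genes, by edgeR's test of the difference itself with adjusted p under 0.05, where 9.73% of all tested genes were called. Values are the log2 fold change with IFNγ in shSdc1 minus that in shRFP cells. The difference was -0.54 for Ccne1 and -0.43 for E2f2. It was -0.43 for Pold2, of the polymerases. For nucleotide supply it was -0.38 for Tyms, -0.38 for Tk1, -0.34 for Rrm2 and -0.29 for Rrm1. For the clamp and its loader it was -0.35 for Pcna, -0.32 for Rfc4, -0.29 for Rfc2 and -0.28 for Rfc5. For single-strand binding and ligation it was -0.32 for Rpa2, -0.32 for Rpa1 and -0.29 for Lig1. For licensing it was -0.26 for Cdc6 and -0.20 for Mcm5, and for Uhrf1 it was -0.23. In every case the value in shSdc1 was below that in shRFP cells, and the cause was not tested.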

How the results depend on the processing

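Over 20 alternatives per comparison between groups and 19 for the difference of IFNγ responses, no called value changed sign. Of the values per member and alternative, 4596 stayed on their side of the threshold, 96 newly passed and 159 no longer passed. For a comparison between groups, part of the leave-one-out fits omit a library of neither compared group. Such a fit can change the result only through the filter, the scaling and the shared spread. The total of unchanged values thus includes fits that test a call weakly. Of the 4596, 1984 were of calls that kept their direction, and 2612 were of values that did not pass, of which 115 changed sign. In shSdc1 against shRFP with IFNγ, 27 of the 32 calls held in every alternative; Cdc6, Gins2, Pold1, Rfc3 and Rrm2 did not. Without IFNγ 9 of 15 held, and Gins3, Mcm2, Orc2, Orc6, Pold2 and Rfc2 did not. With IFNγ against none in shSdc1 cells 8 of 17 held, and Ccnd2, Cdt1, Orc6, Pold2, Prim1, Rfc3, Rfc4, Rrm1 and Rrm2 did not. In shRFP cells 18 of 27 held, and Ccne2, Cdt1, Mcm10, Mcm3, Mcm7, Pola2, Prim2, Rpa1 and Rrm1 did not. For the difference 14 of 17 held, and Cdc6, Mcm5 and Rfc4 did not.

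Leaving out 1 library at a time gave 2 higher and 26 to 32 lower in shSdc1 against shRFP with IFNγ, and 7 to 10 higher and 3 to 7 lower without it; the 3 came without shSdc1 replicate 3 or shRFP replicate 3. IFNγ in shSdc1 cells gave 2 to 5 higher, the 2 without shSdc1 replicate 2 with IFNγ, and 9 to 15 lower. IFNγ in shRFP cells gave 21 to 28 higher and 0 to 2 lower, the 0 without any 1 of the shRFP replicates. The difference gave 0 higher and 14 to 24 lower. Over all genes tested in these fits (14362 to 14428), 2098 to 2677 were higher and 2047 to 2554 lower with IFNγ. Without it 1530 to 2219 were higher and 1660 to 2189 lower. IFNγ gave 2004 to 2553 higher and 1347 to 2214 lower in shSdc1 cells, and 1940 to 2481 and 1468 to 2026 in shRFP cells. For the difference, 373 to 943 genes were higher and 416 to 1056 lower. Among other settings, IFNγ in shSdc1 cells gave 2 members higher with upper-quartile scaling and with no filter. IFNγ in shRFP cells gave 2 lower with upper-quartile scaling, limma-voom or the 1 CPM filter and 0 lower when only the compared groups were fitted. The difference gave 1 higher with upper-quartile scaling, the DESeq2 Wald test or the 1 CPM filter, and DESeq2 gave 24 lower; the cause was not tested.

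With the replicate number as a block, 2 members were higher and 30 lower with IFNγ, 10 and 4 without, 4 and 11 for IFNγ in shSdc1, 22 and 1 for IFNγ in shRFP, and 0 and 14 for the difference. Over the 14089 tested genes the block gave 2528 higher and 2319 lower with IFNγ, and 1811 and 1909 without. It gave 2338 and 1680 for IFNγ in shSdc1, 2284 and 1901 for IFNγ in shRFP, and 500 and 528 for the difference. Deviations of same-numbered samples correlated at -0.07 to 0.03, which gave no sign of pairing. Such deviations are largely noise of single genes, so values near 0 cannot exclude that same-numbered samples were handled together.

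Overlaps and copies limit some members. Processed copies of at least 400 matched bases at 95% identity or more were found for Ccnd3, Cdc6, Mcm7, Pcna, Rfc5, Rrm2, Tyms and Uhrf1. That of Pcna, Pcna-ps2, matched 781 bases at 99.2%. It averaged 1.49 CPM in shSdc1 with IFNγ, 1.65 CPM in shRFP with IFNγ, 1.36 CPM in shSdc1 and 1.14 CPM in shRFP. How such copies affect the counts of these members was not tested. Of 16 members with an overlapping gene over at least 10% of their exon bases or a near-identical copy, 10 were lower in shSdc1 with IFNγ, against 20 of the other 33 and 17.4% of all tested genes. The difference of IFNγ responses passed below 0 for 8 of the 16 and 9 of the 33, where 5.15% of all tested genes did.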

Other observations

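The promoter letters searched for E2F sites split the 39 members with a window into 16 with a match and 23 without. In shSdc1 with IFNγ against shRFP with IFNγ, 10 of the 16 and 15 of the 23 were lower, where 17.4% of all tested genes were. IFNγ in shRFP cells raised 10 of the 16 and 13 of the 23, where 17.2% of all tested genes were raised. IFNγ in shSdc1 cells lowered 12 of the 23 without a match, among them Pcna, Tyms and Tk1, and among the 16 with a match edgeR called 2 higher and 0 lower, with 1 lower at an unadjusted p under 0.05, and DESeq2 and limma-voom also called 0 lower. Over all tested genes, edgeR called 13.0% lower and 17.5% higher with IFNγ in shSdc1 cells. The medians of the log2 fold change in shSdc1 cells were -0.01 with a match and -0.14 without. With the first T of each letter string left off, a choice made after seeing the data, 24 members had a match, and IFNγ in shSdc1 cells lowered 4 of these 24 and 8 of the other 15. The split is a description over these letters, and it was not tested.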
